A study of Mus musculus with 4 samples.

Results

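Histones were read in whole cochleas of *Meis2* mutant and wild-type mouse embryos. They were taken as every gene whose platform symbol follows set naming patterns and stands alone on its probe set. The patterns are those of the replication-dependent clusters and of the H1f and H3f variant series, and a few cluster genes fall outside them. A total of 32 of the 19938 genes alone on a probe set met this rule. Of these, 28 lay in the clusters and 4 were replacement variants, and each was read by 1 probe set. RNA came from E15 cochleas of 2 *Meis2* flox/flox; *Pax2* Cre/+ samples (*Meis2* mutant, replicates 1 and 2) and of 2 samples labelled wild type (replicates 2 and 3), and each was hybridized to 1 Mouse Gene 1.0 ST array (Affymetrix). In the mutants the Cre is driven by *Pax2* regulatory sequences, which act in the developing inner ear, so cells of the dissected tissue in which it is not active keep *Meis2*. The labels do not say whether samples of 1 genotype were separate embryos, so p-values measure only the spread between these arrays.

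Histones package DNA. The core histones H2A, H2B, H3 and H4 form the nucleosome, and the linker histone H1 binds where the DNA enters and leaves it. Most are encoded by clustered, intronless genes that are transcribed in S phase, and their mRNAs end in a conserved stem-loop, bound by Slbp, in place of a poly(A) tail. Replacement variants such as H3.3 and H2A.Z are encoded by single genes with ordinary polyadenylated mRNAs and are made throughout the cell cycle. Many cluster genes are near copies of each other, so a probe can read several of them.

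Values are log2 signals, and differences are mutant minus wild type. The test was limma, which fits a linear model to each probe set and borrows strength for the spread from the others. Its p-values were adjusted over the 35556 probe sets of the array, and the threshold was 0.05. The median probe set signal was 6.73 and 6.72 on the mutant arrays and 6.63 and 6.65 on the wild-type arrays, and the median difference over all probe sets was 0.11. *Meis2* had signals of 9.61 and 9.80 in the mutants and 9.64 and 9.38 in wild type (difference 0.19, adjusted p = 0.284 from limma), which leaves the genotype unchecked. The probes may lie in exons that the deletion spares, or the signal may come from cells that keep *Meis2*, and neither was tested. The Y-linked genes *Eif2s3y*, *Kdm5d* and *Uty* lay in both mutants below a signal of 5.72, the level under which 95% of olfactory and vomeronasal receptor probe sets lie, and were well above it on both wild-type arrays, and *Xist* had signals of 11.83 and 11.84 in the mutants and 5.54 and 11.51 in wild-type replicates 2 and 3. The sex of the embryos and the genotype therefore cannot be told apart here, and 0 of the 32 histone genes lie on X or Y.

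The stretches before the starts of cluster genes that passed the test are shown first, with *H2bc9* and *H2ac8* beside them for contrast, because the upstream elements of histone genes are part of how each family is regulated. They are RefSeq sequences of mouse build GRCm38.p6, read 5′ to 3′ toward the gene, and each ends at the base before its start. Capitals mark 4 motifs on either strand: the octamer ATTTGCAT, which is bound by POU factors such as Oct-1, the CCAAT box, the TATA box as TATAAA, and AAACACA, the element known upstream of H1 genes. No matches overlapped each other.

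The 3 linker histone genes that fell all held a CCAAT box, 2 of them (*H1f1* and *H1f5*) also TATAAA and 2 (*H1f2* and *H1f5*) AAACACA. The stretch of H1f1 lies at chr13:23763528-23763667 and that of H1f2 at chr13:23738667-23738806, both on the plus strand, and that of H1f5 at chr13:21780626-21780765 on the minus strand.
H1f1: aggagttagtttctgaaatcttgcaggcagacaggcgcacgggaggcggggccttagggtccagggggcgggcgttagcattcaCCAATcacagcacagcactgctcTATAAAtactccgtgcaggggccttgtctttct
H1f2: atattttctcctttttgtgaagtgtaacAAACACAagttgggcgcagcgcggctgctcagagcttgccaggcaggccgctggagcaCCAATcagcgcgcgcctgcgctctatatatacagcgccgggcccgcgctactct
H1f5: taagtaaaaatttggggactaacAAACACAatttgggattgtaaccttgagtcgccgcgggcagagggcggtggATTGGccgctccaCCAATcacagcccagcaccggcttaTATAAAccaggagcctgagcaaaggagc

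Among H2B genes, H2bc3 (chr13:23746594-23746733, plus strand) held the octamer, and H2bc9 (chr13:23543445-23543584, minus strand), shown because its signal did not pass the test, did not hold it. Of the 8 H2B genes with a promoter, both that fell (*H2bc3* and *H2bc8*) and 3 of the 6 that did not pass the test held the octamer.
H2bc3: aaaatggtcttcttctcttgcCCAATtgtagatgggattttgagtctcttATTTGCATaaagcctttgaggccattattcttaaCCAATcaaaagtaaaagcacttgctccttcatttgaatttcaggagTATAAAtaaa
H2bc9: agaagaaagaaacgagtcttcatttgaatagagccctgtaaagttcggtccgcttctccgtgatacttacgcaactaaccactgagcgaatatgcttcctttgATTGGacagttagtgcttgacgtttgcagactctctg

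Of the H2A genes, H2ac4 (chr13:23750948-23751087, plus strand) was lower and H2ac15 (chr13:21753913-21754052, minus strand) was higher in the mutants, and the octamer of H2ac4 reads in the other direction.
H2ac4: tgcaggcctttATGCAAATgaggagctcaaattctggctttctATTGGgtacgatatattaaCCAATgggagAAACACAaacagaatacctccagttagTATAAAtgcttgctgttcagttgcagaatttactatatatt
H2ac15: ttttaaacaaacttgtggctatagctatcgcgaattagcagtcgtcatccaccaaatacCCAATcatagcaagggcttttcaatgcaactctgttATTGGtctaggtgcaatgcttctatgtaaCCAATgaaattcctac

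H2bc8 and H2ac8 are transcribed away from each other, and the 179 bases between their starts (chr13:23571221-23571399) serve both genes. They are printed on the plus strand, toward H2bc8.
H2bc8 and H2ac8: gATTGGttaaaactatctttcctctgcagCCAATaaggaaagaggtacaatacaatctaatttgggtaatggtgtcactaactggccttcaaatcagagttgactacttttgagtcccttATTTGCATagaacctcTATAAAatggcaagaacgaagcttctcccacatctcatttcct

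The table of promoters matched 28 of the 32 genes, and *H2bc4*, *H2bc21*, *H3c7* and *H4c14* were not matched. In the 250 bases before the start, the octamer stood in 8 of the 28, of which 5 were H2B genes and 3 H2A genes, against 1.60% of all 32851 promoters. A CCAAT box stood in 22 of 28, against 33.8% of all promoters, TATAAA in 15 of 28, against 12.4%, and AAACACA in 9 of 28, against 6.25%. Of the 5 clustered H1 genes, 4 held AAACACA, and *H1f1* did not. Of the cluster genes that fell and had a promoter, 3 of 6 held the octamer, and of the other cluster genes 5 of 18 held it. The octamer between *H2bc8* and *H2ac8* is the same site counted for both genes, so it stands in both of these groups. *H2ac1* and *H2bc1* are also transcribed away from each other, and their stretches of 250 bases overlap in part. Each held 1 octamer, and whether it is the same site counted for both was not examined.

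In the mutants 8 of the 32 histone genes fell, 4 rose and 20 did not pass the test. This share of 12 in 32 was close to the background, since 37.3% of all probe sets were called (15.7% lower and 21.6% higher). That background includes many dim probe sets. With those that averaged at or below the receptor level left out, 12069 of 23056 were called (5398 lower and 6671 higher), and 12 of 26 histone genes (7 lower and 5 higher). The median difference of the histone genes was -0.10, and that of all probe sets was 0.11. Both groups were apart without overlap for 15 genes that were lower and 8 that were higher in the mutants, where 76.1% of all probe sets did not overlap (26.4% lower and 49.7% higher). After scaling the arrays to a common median, which moved the median of all differences to 0.03, 9 histone genes were lower and 2 higher, with a median of -0.18. Without mutant replicate 1, 5 histone genes passed the test, and without mutant replicate 2, 4 did. The median was -0.04 without wild-type replicate 2 and -0.17 without wild-type replicate 3. *H1f7* (adjusted p = 0.0454 from limma) was the gene just inside the threshold and *H1f6* (adjusted p = 0.0558 from limma) the one just outside it. In whole tissue, fewer cells of a type and less RNA per cell cannot be told apart.

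**Figure D1:**
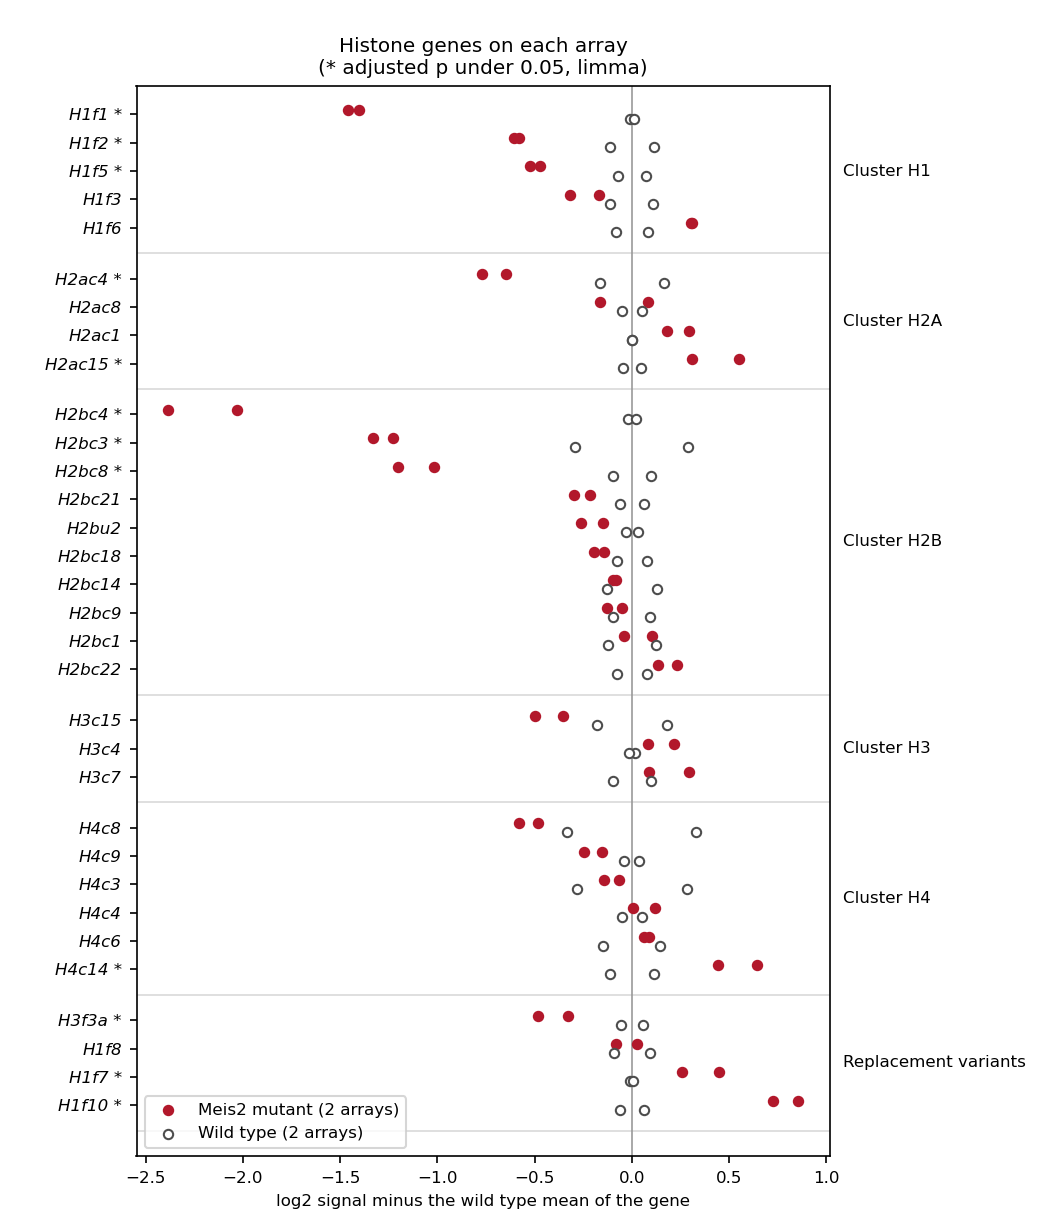
Log2 signal of each histone gene on each array minus the mean of its wild-type arrays (x axis), with genes down the page by class and protein family. Filled points are the 2 Meis2 mutant arrays, open points the 2 wild-type arrays, and asterisks mark an adjusted p under 0.05 from limma. The mutant points of H2bc4 lie farthest to the left and those of H1f10 farthest to the right.

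Of the 5 linker histone genes of the Hist1 cluster, 3 fell and 0 rose, where 15.7% of all probe sets fell and 21.6% rose. *H1f1* had signals of 10.15 and 10.09 in the mutants and 11.54 and 11.56 in wild type. Its arrays agreed within each genotype by less than 0.06 and the groups were far apart, so that the gene was 2.69-fold lower in the mutants (difference -1.43, standard error 0.08, adjusted p = 0.00257 from limma). *H1f5*, which encodes one of the main somatic H1 proteins of dividing cells, had signals of 11.03 and 11.08 in the mutants and 11.48 and 11.63 in wild type, and *H1f2*, another somatic H1, had 9.35 and 9.37 in the mutants and 9.84 and 10.06 in wild type. The groups did not overlap in either gene, nor did they in 76.1% of all probe sets. The differences were -0.50 (standard error 0.09, adjusted p = 0.0156 from limma) and -0.59 (standard error 0.11, adjusted p = 0.0144 from limma). The remaining pair gave values of both signs. *H1f3*, also somatic, had a difference of -0.24 at a mean signal of 5.57, and *H1f6*, the testis-specific H1t, had signals of 6.05 and 6.05 in the mutants and 5.66 and 5.83 in wild type (difference 0.31, adjusted p = 0.0558 from limma). Without mutant replicate 1 or replicate 2, *H1f2* was no longer past the threshold (adjusted p = 0.0737 and 0.0735 from limma), nor was *H1f5* (0.0848 and 0.0740), whereas *H1f1* stayed past it.

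H2B genes held the largest fall. *H2bc4* had signals of 7.57 and 7.21 in the mutants and 9.58 and 9.62 in wild type, a 4.62-fold fall and the largest of the 32 genes (difference -2.21, standard error 0.14, adjusted p = 0.00272 from limma). It is one of the H2B genes known to give polyadenylated transcripts as well, in differentiated cells. *H2bc3* had signals of 10.21 and 10.11 in the mutants and 11.73 and 11.15 in wild type. The wild-type arrays were 0.58 apart, and both lay above the mutants by more than that gap (difference -1.28, standard error 0.20, adjusted p = 0.0108 from limma). *H2bc8* had signals of 6.51 and 6.33 in the mutants and 7.63 and 7.43 in wild type (difference -1.11, standard error 0.11, adjusted p = 0.00451 from limma). The other 7 H2B genes did not pass the test, with differences between -0.26 and 0.18, and *H2bc9*, whose promoter is printed above, had signals of 10.98 and 10.90 in the mutants and 11.12 and 10.93 in wild type. *H2bc3* lost its call without mutant replicate 2 (adjusted p = 0.0602 from limma), while *H2bc4* and *H2bc8* stayed past the threshold under all 12 alternatives run, with adjusted p-values of at most 0.0247 and 0.0325 from limma.

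The 4 H2A genes that met the rule went different ways. *H2ac4* fell, with signals of 8.62 and 8.49 in the mutants and 9.43 and 9.10 in wild type (difference -0.71, standard error 0.14, adjusted p = 0.0170 from limma). *H2ac15* rose, with signals of 12.76 and 13.002 in the mutants and 12.50 and 12.40 in wild type (difference 0.43, standard error 0.11, adjusted p = 0.0386 from limma). Both pairs of groups were free of overlap, as were those of 76.1% of all probe sets. *H2ac1*, an H2A of the testis, had signals of 8.38 and 8.26 in the mutants and 8.08 and 8.09 in wild type (difference 0.24, adjusted p = 0.0831 from limma). *H2ac8*, which faces *H2bc8* across the printed stretch, averaged 4.97, below the receptor level of 5.72, with a difference of -0.04. *H2ac15* lost its call after median scaling (adjusted p = 0.0793 from limma) and without any 1 of the 4 arrays (adjusted p = 0.0564 to 0.164), and *H2ac4* without either mutant array (0.0610 and 0.0888).

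Of the 3 H3 and 6 H4 genes that met the rule, 1 rose and 0 fell, where 21.6% of all probe sets rose and 15.7% fell. *H4c14*, an H4 gene of the Hist2 cluster, had signals of 12.53 and 12.34 in the mutants and 12.004 and 11.78 in wild type (difference 0.54, standard error 0.12, adjusted p = 0.0264 from limma). It lost its call without wild-type replicate 3 (adjusted p = 0.0733) or either mutant replicate (0.118 and 0.0661). The largest difference short of the threshold was that of *H4c8*, which had signals of 7.31 and 7.22 in the mutants and 8.13 and 7.47 in wild type. Its wild-type arrays were 0.66 apart, more than the difference of -0.53 (adjusted p = 0.124 from limma). *H3c15* had signals of 5.31 and 5.17 in the mutants and 5.85 and 5.49 in wild type and lay below the receptor level (difference -0.43, adjusted p = 0.0734 from limma). The other 6 differed by between -0.20 and 0.19, among them *H3c7*, with signals of 5.19 and 4.98 in the mutants and 4.80 and 4.99 in wild type.

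By position, 7 of the 23 Hist1 genes fell and 1 rose, and 1 of the 4 Hist2 genes rose and 0 fell. The single Hist3 gene that met the rule did not pass the test. The shares called were 34.8% in Hist1 and 25% in Hist2, near or below the background of 37.3%, although 30.4% of Hist1 genes were lower beside 15.7% of all probe sets. Hist1 genes lie in 2 stretches of chromosome 13 in the RefSeq order. In the first, with 5 of the genes, *H1f5* fell and its neighbour *H2ac15* rose. In the second, with 18, 6 fell and 0 rose. Among the genes with a probe set of their own, *H1f2*, *H2bc3*, *H2ac4* and *H1f1* came next to each other in that order, all lower, and the 2 testis genes beyond them, *H2bc1* and *H2ac1*, had differences of 0.03 and 0.24. Copies read only by shared probe sets are left out of this order. *H2bc4* and *H2bc8* lay among genes that did not pass the test. Whether neighbours moved together more than distant genes was not tested.

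**Figure D2:**
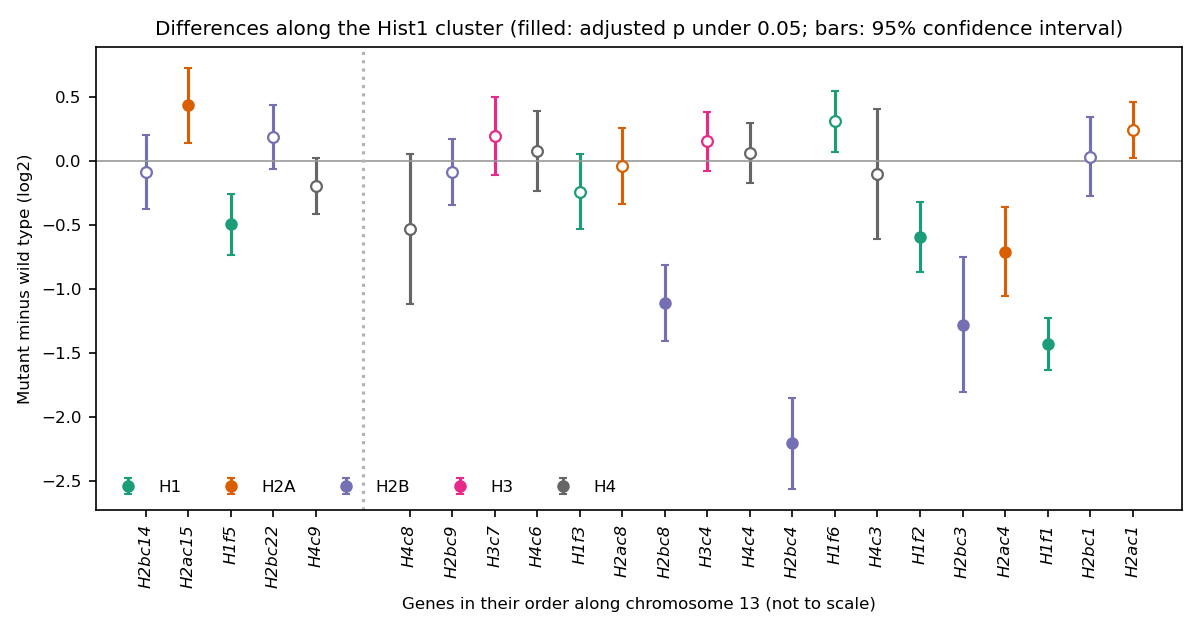
Difference between mutant and wild-type cochleas (y axis, log2, with the 95% confidence interval from limma) for the 23 Hist1 genes in their order along chromosome 13 (x axis, not to scale), coloured by protein family. Filled points passed an adjusted p of 0.05, the dotted line parts the 2 stretches, and among these genes 4 filled points in a row, H1f2 to H1f1, lie below 0.

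Probe sets that list several copies at once fall outside the rule. There were 24 probe sets with over 10 histone symbols each (10 for H3, 7 for H2B, 5 for H4 and 2 for H2A), and their mean signals lay between 12.8 and 13.6. Their differences lay between -0.05 and 0.14, against a range of -2.21 to 0.54 for the 28 single cluster genes. None of the 24 passed the test, and 0 had an unadjusted p under 0.05 from limma. Their 95% confidence intervals together ran from -0.35 to 0.44 on the log2 scale. Some of these sets repeat the values of another, so they are not 24 independent readings. Signals this high were rare on the arrays, where 135 probe sets averaged above 13 and the highest single value was 14.2. Of those 135, 22.2% were called, against 37.3% of all probe sets. Most of the 24 histone sets are themselves among the 135 and lower that share. Whether the signal range limits differences at this height was not tested.

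Probe sets with a pair of symbols complete the clusters. A set that lists an H2B and an H1 symbol had signals of 7.33 and 7.30 in the mutants and 7.96 and 7.62 in wild type (difference -0.47, adjusted p = 0.0457 from limma), a call that was lost with a trended prior, after quantile normalization and without either mutant replicate or wild-type replicate 2. A set that lists a pair of H4 symbols had signals of 5.82 and 5.50 in the mutants and 6.52 and 5.93 in wild type (difference -0.57, adjusted p = 0.108 from limma).

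**Figure D3:**
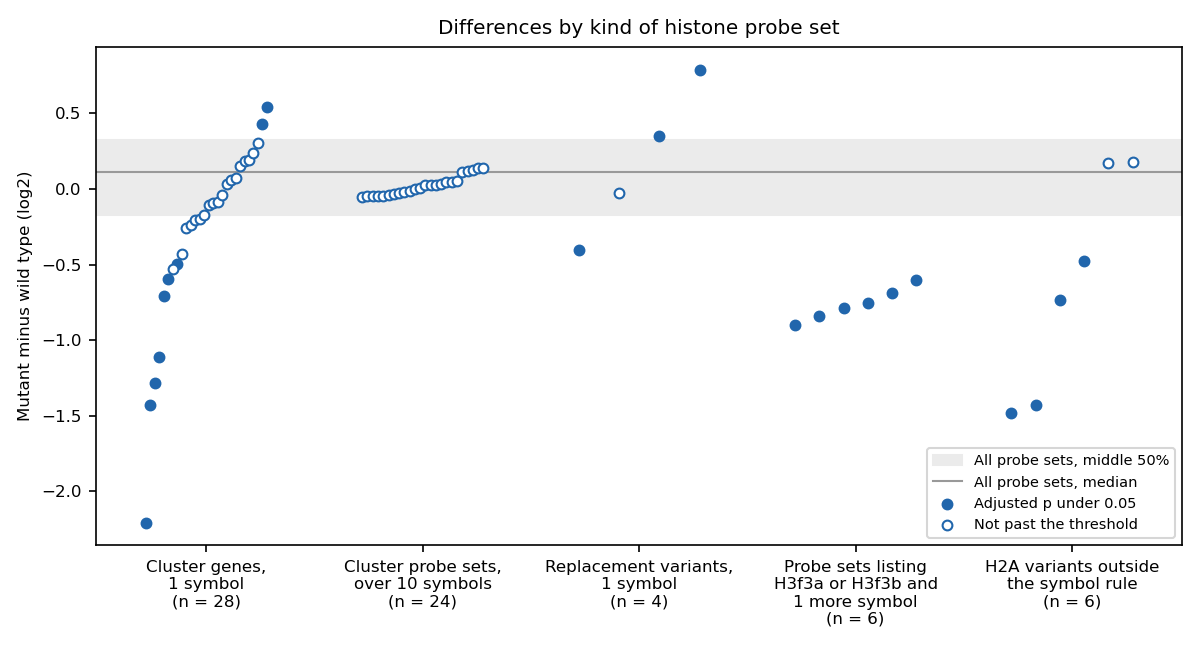
Differences between mutant and wild-type cochleas (y axis, log2) for 5 kinds of histone probe set (x axis, number in brackets), each point a probe set in rising order. Filled points passed an adjusted p of 0.05 from limma, the grey band holds the middle 50% of all probe sets and the grey line is their median of 0.11. The sets with over 10 symbols lie between -0.05 and 0.14, inside the band, and the 6 sets that list an H3.3 gene all lie below it. The H2A variants H2ab1, H2al2a and Macroh2a3, which also lie outside the symbol rule and did not pass the test, are not drawn.

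Replacement variants were few under the rule, and 2 of 4 rose and 1 fell (1 and 1 after median scaling or quantile normalization). Of all probe sets, 21.6% rose and 15.7% fell. *H1f10*, a replication-independent linker histone known as H1x, had signals of 11.02 and 11.14 in the mutants and 10.23 and 10.35 in wild type. The groups were apart by far more than the gap within either of them (difference 0.79, standard error 0.09, adjusted p = 0.00588 from limma), and the call held under all 12 alternatives. *H1f7*, a linker histone of spermatids, had signals of 7.01 and 7.21 in the mutants and 6.75 and 6.77 in wild type (difference 0.35, standard error 0.10, adjusted p = 0.0454 from limma). It lost its call under 8 of 12 alternatives, among them the loss of any 1 array (adjusted p = 0.0745 to 0.205) and median scaling (0.102). *H1f8*, the oocyte linker histone, had signals of 5.45 and 5.56 in the mutants and 5.43 and 5.62 in wild type, which overlap (difference -0.03, adjusted p = 0.851 from limma).

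*H3f3a* encodes H3.3, the H3 variant laid down outside replication at active genes. Its own probe set was dim, with signals of 5.22 and 5.07 in the mutants and 5.49 and 5.61 in wild type, below the receptor level of 5.72 (difference -0.41, standard error 0.10, adjusted p = 0.0310 from limma). That call was lost without either mutant replicate (adjusted p = 0.0752 and 0.155) or wild-type replicate 3 (0.0925). Another 6 probe sets list an H3.3 gene, *H3f3a* in 4 and *H3f3b* in 2, beside a predicted gene, so they name no gene here. They were bright and all 6 fell, where 15.7% of all probe sets did, by differences of -0.60 to -0.90 (adjusted p = 0.00461 to 0.00805 from limma). Since several of them list the same H3.3 gene, they are not 6 independent readings. A set listing *H3f3b* had signals of 11.68 and 11.78 in the mutants and 12.34 and 12.33 in wild type. A set listing *H3f3a* had 11.11 and 10.94 in the mutants and 11.93 and 11.92 in wild type. The count stayed at 6 under the alternatives run, except without mutant replicate 1, where it was 5.

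The annotation carries newer names for most H2A variants, which the symbol rule misses. The rule also misses the cluster members *H2aw*, *H2bu1-ps* and *H4f16*. All of these were looked up by their older names after the values had been seen. Of these 12 genes 4 fell, all of them H2A variants, and 0 rose. Their share of calls, 33.3%, was near the background of 37.3% (15.7% lower and 21.6% higher). *H2az1* and *H2az2* encode H2A.Z, a variant found at promoters and enhancers. *H2az1* had signals of 10.60 and 10.34 in the mutants and 11.93 and 11.99 in wild type (difference -1.48, standard error 0.11, adjusted p = 0.00305 from limma). A further probe set of this gene differed by -1.64. *H2az2* had 10.06 and 9.89 in the mutants and 11.23 and 11.58 in wild type (difference -1.43, standard error 0.15, adjusted p = 0.00452 from limma). Both differences were close to that of *H1f1*, the second lowest of the 32 histone genes. *Macroh2a1*, which encodes the large macroH2A variant of repressed chromatin, had signals of 10.49 and 10.46 in the mutants and 11.19 and 11.24 in wild type (difference -0.73, adjusted p = 0.00472 from limma). Its relative *Macroh2a2* had a smaller difference of -0.48 (adjusted p = 0.0329 from limma), which was not past the threshold without mutant replicate 1 (adjusted p = 0.124), wild-type replicate 2 (0.0895) or wild-type replicate 3 (0.0756). *H2ax*, whose product is phosphorylated at DNA breaks, and *H2aj* had differences of 0.17 and 0.18 (adjusted p = 0.195 and 0.136 from limma). The H2A variants *H2ab1*, *H2al2a* and *Macroh2a3* had differences of 0.28, 0.02 and -0.01 and did not pass the test either. *Cenpa*, which encodes the H3 variant of centromeres, had a difference of -0.25 (adjusted p = 0.179 from limma).

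Genes that transcribe and process histone mRNA were lower more often than higher. Of 27 measured genes, 16 fell, 2 rose and 9 did not pass the test (59.3% lower and 7.41% higher, where 15.7% and 21.6% of all probe sets were), with a median difference of -0.44 beside 0.11 for all probe sets. *Casp8ap2*, which encodes FLASH, a part of the histone locus body that is needed for cleavage of histone pre-mRNA, had signals of 7.17 and 7.07 in the mutants and 8.61 and 8.72 in wild type (difference -1.54, adjusted p = 0.0026 from limma). *Ncbp2*, the small subunit of the nuclear cap-binding complex, had 8.75 and 8.54 in the mutants and 9.98 and 10.10 in wild type (difference -1.40, adjusted p = 0.00305 from limma), and *Ncbp3*, another cap-binding protein, differed by -0.97. *Pcf11*, of the general 3′ end cleavage machinery, differed by -1.30. The stem-loop binding protein itself and the transcriptional coactivator of the cluster genes were among those that fell. *Slbp* had signals of 8.73 and 8.91 in the mutants and 9.72 and 9.64 in wild type (difference -0.86, adjusted p = 0.00535 from limma), and *Npat* had 8.77 and 8.85 in the mutants and 9.26 and 9.43 in wild type (difference -0.54, adjusted p = 0.0150 from limma). The 2 that rose were *Hinfp*, which activates H4 genes, by 0.58 and *Cpsf3*, the endonuclease of the cleavage complex, by 0.70. Without mutant replicate 1 or replicate 2 the list held 8 calls each, against 18 with all arrays.

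Among histone chaperones, which carry histones to DNA, 11 of 35 measured genes fell and 6 rose (31.4% and 17.1%, beside 15.7% and 21.6% of all probe sets), with a median difference of -0.13 beside 0.11 for all probe sets. With dim probe sets left out, 17 of 34 chaperones were called (11 lower and 6 higher), beside 12069 of 23056 probe sets (5398 lower and 6671 higher). *Anp32a* had signals of 8.82 and 9.09 in the mutants and 11.05 and 10.96 in wild type (difference -2.05, adjusted p = 0.0026 from limma). *Asf1a*, the chaperone that hands H3 and H4 to the assembly factors, had 7.17 and 6.88 in the mutants and 8.90 and 9.21 in wild type (difference -2.03, adjusted p = 0.00296 from limma). *Nasp*, which holds the soluble store of H3 and H4 and binds H1, had 7.10 and 7.03 in the mutants and 8.71 and 9.04 in wild type (difference -1.80, adjusted p = 0.0029 from limma). *Anp32e*, which removes H2A.Z from nucleosomes, differed by -1.18. The paralog *Asf1b* moved the other way, by 0.58 (adjusted p = 0.0102 from limma). Without mutant replicate 2 the list held 8 calls, against 17 with all arrays.

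Genes of DNA replication, the phase in which the cluster genes are read, were divided. Of 52 measured genes 14 fell and 9 rose (26.9% and 17.3%, beside 15.7% and 21.6% of all probe sets), so that 44.2% were called where the background was 37.3%. With dim probe sets left out, 26 of the 52 were called (16 lower and 10 higher), beside 12069 of 23056 probe sets (5398 lower and 6671 higher). The share called in the list was not above that background. The median difference was -0.03, and after median scaling 18 fell and 7 rose. *Gins1*, of the replicative helicase, had signals of 5.59 and 5.65 in the mutants and 7.32 and 7.68 in wild type (difference -1.88, adjusted p = 0.00291 from limma). *Pcna*, the sliding clamp, differed by -0.99, *Tyms*, thymidylate synthase, by -0.99 and *Ccne2*, a cyclin of S phase entry, by -0.95. In the other direction, *Pold1*, the catalytic subunit of polymerase delta, rose by 0.72, *Pola2*, a subunit of polymerase alpha, by 0.69 and the helicase subunit *Mcm5* by 0.66. Without mutant replicate 2 the list held 11 calls, against 23 with all arrays.

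**Figure D4:**
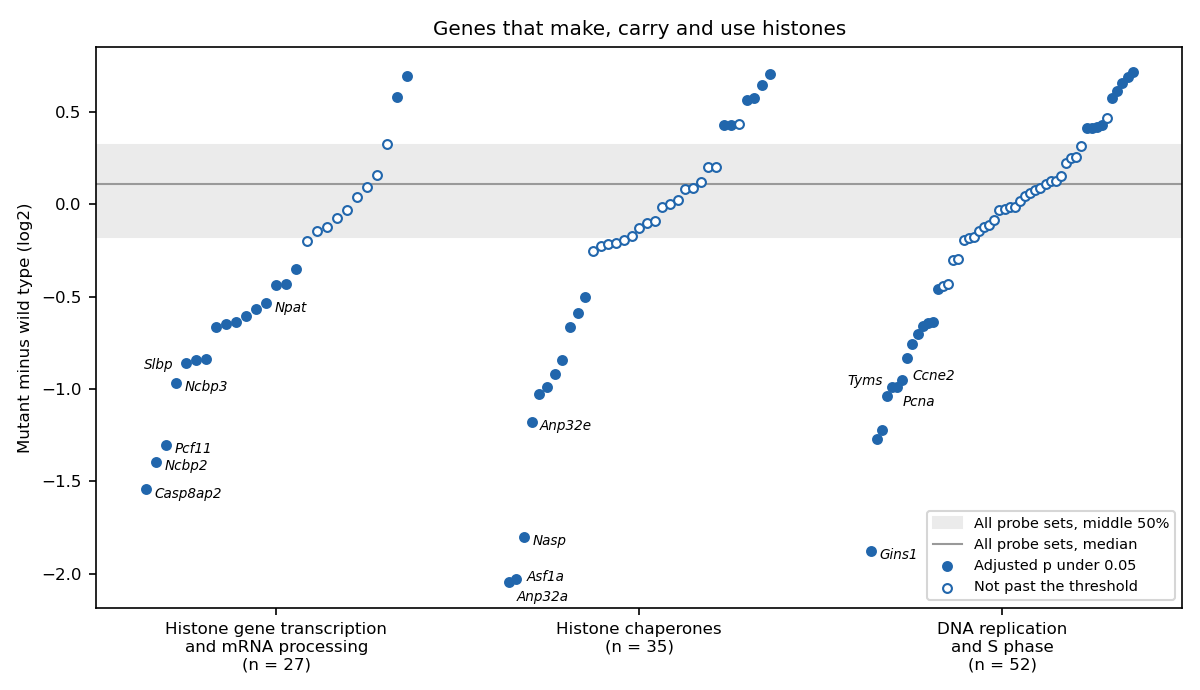
Differences between mutant and wild-type cochleas (y axis, log2) for the genes of 3 lists (x axis, number measured in brackets), each point a gene in rising order. Filled points passed an adjusted p of 0.05 from limma, the grey band holds the middle 50% of all probe sets and the grey line is their median. The processing list has its median at -0.44, below the band, and the replication list has its median at -0.03, inside it.

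Markers of some other cells moved with the genotype beside the histone genes. Over all probe sets 21.6% rose and 15.7% fell. Of 10 skeletal muscle genes 8 rose and 0 fell, with summed log2 signals of 66.2 and 69.6 in the mutants and 60.4 and 62.4 in wild type. Of 10 spiral ganglion neuron genes 6 fell and 0 rose, with summed signals of 82.7 and 82.2 in the mutants and 89.7 and 89.8 in wild type. Of 6 erythroid genes 4 rose and 1 fell, with summed signals of 44.6 and 43.9 in the mutants and 42.7 and 42.3 in wild type. Cochlear and otic markers were present, and 5 of 11 rose and 2 fell. Of 9 genes of periotic mesenchyme and cartilage 2 rose and 2 fell. Of 8 macrophage genes 1 fell and 0 rose, and of 6 endothelium genes 0 passed the test. The part of these shifts in the histone differences was not tested. Of 7 male germ cell genes 1 rose, *Prm2*, and 6 were higher in the mutants without overlap between the groups, where 49.7% of all probe sets were. The median difference over the 7 was 0.15, beside 0.11 for all probe sets, and *Sycp3* went the other way (-0.18). *Ddx4*, *Dazl*, *Tnp1* and *Acrv1* were among the 6 higher genes (0.15, 0.26, 0.12 and 0.32) and stayed below the receptor level on all arrays. These values stand beside those of the testis histone genes *H1f6*, *H1f7*, *H2ac1* and *H2bc1* (differences 0.31, 0.35, 0.24 and 0.03), and their part in them was not tested.

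Wild-type arrays also differed from each other in histone signal. Wild-type replicate 2 exceeded replicate 3 by more than 0.2 in 9 of the 28 cluster genes, whereas replicate 3 exceeded replicate 2 by as much in 2, and 11.3% of all probe sets showed the first pattern. The widest gaps were those of *H4c8* (0.66), *H2bc3* (0.58) and *H4c3* (0.56). All 7 shared H2B probe sets were higher by more than 0.2 in wild-type replicate 2. Mutant replicate 1 exceeded replicate 2 by more than 0.2 in 3 cluster genes, and the widest gap between the mutants was 0.36, in *H2bc4*. Without wild-type replicate 2, the median difference of the 28 cluster genes was -0.04, against -0.14 with all arrays.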

How the data were processed

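The deposited values are log2 signals of 4 arrays, 1 per probe set, which the authors computed with RMA (background correction, normalization between arrays, summary of probes). RMA and the build mm8 are those named in the submitters' processing notes. Scanner files were not used here. Gene symbols came from the platform's annotation, where 21789 of 35556 probe sets carried 1 symbol, 1621 several and 12146 have none listed. Where a gene had several, the one with the highest mean over all arrays stood for it. limma 3.58.1 in R 4.3.3 was fitted to all probe sets (lmFit, eBayes, no covariate, no filter, Benjamini-Hochberg adjustment, threshold 0.05), leaving 2 residual degrees of freedom and 2.91 from the prior. The methods name significance analysis of microarrays, which was not run, since with 2 arrays a genotype its chance level comes from other splits of the same 4 arrays. The test was also run on simulated arrays of 35556 probe sets, with 100 changed by 1 and 100 by 2 (log2). Of these changes 60% and 92% were recovered. Far more probe sets were called in the data (37.3%), and the adjustment depends on that share. These rates therefore do not carry over to this comparison.

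The members and lists were chosen with earlier results of these data known. Named were every histone gene past the threshold, every replacement variant, the 5 cluster genes with the largest difference in each direction and up to 4 genes a list with the smallest p. The H2A variants outside the rule, the probe sets with several symbols and other genes named were chosen after their values were seen. Alternatives were leaving out each array, median scaling, quantile normalization, trended and robust priors, array weights, a threshold of 0.1, leaving out dim probe sets or those without exactly 1 symbol, and averaging a gene over its probe sets.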

Additional observations from a re-analysis of the deposited data

How the results depend on the processing

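The number of arrays limits the precision, and calls thinned out when a mutant array was left out, where the lone array is assumed to vary like the others. Leaving out 1 array gave 4611 to 10895 calls over all probe sets (13268 with all), 4 to 10 histone genes (12), 3 to 9 cluster genes (9), 1 to 2 replacement variants (3), 0 to 2 probe sets with several histone symbols (1), 8 to 15 genes of histone mRNA processing (18), 8 to 16 chaperones (17) and 11 to 19 replication genes (23). The lowest values were without mutant replicate 2, tied with other arrays for the variants, the probe sets with several symbols and histone mRNA processing. The probe sets with several histone symbols held 0 calls after quantile normalization and with a trended prior. Median scaling gave 5062 higher and 6439 lower probe sets, against 7695 and 5573, 2 higher and 9 lower histone genes, against 4 and 8, 1 higher and 8 lower cluster genes, against 2 and 7, 1 and 1 variants, against 2 and 1, and 7 higher and 18 lower replication genes, against 9 and 14. *H1f8* (difference -0.03) ranged from -0.12 to 0.068 with 1 array left out, at 0.029 without mutant replicate 1 and 0.068 without wild-type replicate 3. Among the 16 named histone genes, 8 of the 12 called lost the call under 1 or more of the 12 settings at the threshold of 0.05, and *H1f1*, *H2bc4*, *H2bc8* and *H1f10* did not. No paired analysis was possible because the genotypes share only the replicate number 2.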
